A study of Mus musculus with 6 samples.

Results

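The transport machinery of the primary cilium was represented by 30 genes of the 55414 listed in the count table. They were all genes whose symbol is Ift or Bbs followed by a number (14 and 8 genes), together with 8 named genes: *Kif3a*, *Kif3b*, *Kifap3*, *Kif7*, *Arl13b*, *Dync2h1*, *Cluap1* and *Traf3ip1*. The rule used names and no measured value, but it was set with earlier results of these data known. Messenger RNA came from 6 libraries of sorted mouse cells, 3 per genotype, taken from the trunk of embryos at E10.5. WT cells carried both copies of the *mir-302* cluster and KO cells carried none. Both groups were offspring of *Pdx1-Cre*, *mir-302*+/- males and tdTomato, *mir-302*+/- females, and in both the sorted cells were those in which Cre, driven by the *Pdx1* promoter, had switched on the tdTomato reporter from the *Rosa26* locus. The *mir-302* deletion was carried in the germline and did not depend on Cre, so that KO cells outside the sort lacked the cluster as well. How many embryos went into a library is not stated, and nothing says that the libraries came from separate embryos, so the p-values below measure the spread between these libraries.

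The primary cilium is a single antenna of microtubules on the surface of most embryonic cells, and Hedgehog signals are read there. Its parts are carried outward by kinesin-2 with the IFT-B complex and back to the cell body by dynein-2 with the IFT-A complex, while the BBSome moves membrane receptors out of the cilium. Pancreatic progenitors carry such cilia, and mice that lose them in the pancreas develop ducts that widen into cysts.

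A miRNA finds its target mRNAs through its seed, the bases near its 5′ end, and the miR-302 members of the deleted cluster have closely similar seeds. The mature forms held by RefSeq (GRCm38.p6) are shown here to define the sites searched below, with the seed, bases 2 to 8, in capitals. They lie within an intron of *Larp7* on the plus strand, at chr3:127545275-127545297 for miR-302b and chr3:127545665-127545687 for miR-302d, which share the seed AAGUGCU. In RefSeq, miR-302c, at chr3:127545406-127545427, starts 1 base further along the same core, so that its bases 2 to 8 are AGUGCUU.
miR-302b-3p: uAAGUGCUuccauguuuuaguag
miR-302d-3p: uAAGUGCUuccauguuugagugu
miR-302c-3p: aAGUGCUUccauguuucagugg

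Sites for the seed of miR-302b and miR-302d alone were looked for in 3′UTRs, taking each gene's longest one in GENCODE M21 (GRCm38). A site was AGCACTT, which pairs with bases 2 to 8, or GCACTTA, which pairs with bases 2 to 7 and holds an A opposite base 1. Of the 30 cilium genes, 6 held such a site, compared with 20.6% of the 13768 tested genes with a 3′UTR. *Ift88* and *Bbs1* held 2 sites each and *Bbs12*, *Bbs4*, *Ift52* and *Kif3b* 1 each. The sites of *Ift88* and *Bbs12*, the 2 cilium genes whose libraries did not overlap between the genotypes, and of *Kif3b*, which had the lowest fold change of the 30, are given with the paired bases in capitals. The *Ift88* sites lie at chr14:57517642-57517666, plus strand, and chr14:57517717-57517741, plus strand. The *Bbs12* site lies at chr3:37321337-37321361, plus strand, and the *Kif3b* site at chr2:153332727-153332751, plus strand, all in 3′UTRs of GRCm38.
*Ift88*, first site: gagatttataAGCACTTgccaccac
*Ift88*, second site: ttgcaaggcaAGCACTTttccaatt
*Bbs12*: aagaacagcaAGCACTTttgagtca
*Kif3b*: ataggcatgaAGCACTTtgtaagac

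RFX factors, which switch on cilium genes, bind the X-box, a pair of facing half-sites. Promoters of 27 of the 30 genes were matched in RefSeq (GRCm38.p6), each running from 250 bases before the gene start to 50 after it. *Ift122*, *Ift80* and *Ift81* were not matched. A full X-box, searched on both strands as GTTNCC, then 0 to 3 bases, then GGNAAC, was found in the promoters of *Bbs7* and *Ift57*. These were 7.41% of the 27 promoters, compared with 0.804% of all 32851 promoters. The single half-site GTTGCC, on either strand and including half-sites inside a full X-box, was found in 12 of the 27 (44.4%), compared with 12.5% of all promoters. Cilium promoters also held more GC, with a median of 57.7% against 52.7%. The *Bbs7* promoter, at chr3:36613340-36613639, minus strand, ends its X-box 108 bases before the gene start, and the *Ift57* promoter, at chr16:49699044-49699343, plus strand, 48 bases before it. Both are shown because they carry the full motif, which is in capitals.
*Bbs7* promoter: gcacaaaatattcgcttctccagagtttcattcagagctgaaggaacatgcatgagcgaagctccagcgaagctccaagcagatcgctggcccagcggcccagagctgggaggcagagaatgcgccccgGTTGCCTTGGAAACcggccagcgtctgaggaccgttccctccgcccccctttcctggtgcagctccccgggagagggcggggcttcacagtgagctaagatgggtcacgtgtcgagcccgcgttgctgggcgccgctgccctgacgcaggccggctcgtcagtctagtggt
*Ift57* promoter: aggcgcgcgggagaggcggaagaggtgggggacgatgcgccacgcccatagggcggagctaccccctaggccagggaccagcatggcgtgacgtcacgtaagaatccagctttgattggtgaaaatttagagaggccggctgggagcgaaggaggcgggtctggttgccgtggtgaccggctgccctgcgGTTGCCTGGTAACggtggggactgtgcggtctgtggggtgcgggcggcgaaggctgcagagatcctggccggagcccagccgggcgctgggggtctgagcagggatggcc

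The 6 libraries held 17352498 to 26634523 counts each. *Pdx1* was at 73.1 to 108 CPM, counts scaled to library size, in every library, and epithelial markers summed to 3660 to 4220 CPM. *Ptf1a*, a factor of the pancreatic bud, was at 1.52 to 4.96 CPM. Calls among the markers came from DESeq2 alone, which called 4.87% of all genes to which it gave an adjusted p. DESeq2 called 1 of 10 progenitor markers, *Gata4* (log2 fold change 0.63, adjusted p = 9.19e-04, or 0.14 from edgeR). It called 1 of 6 epithelial markers, *Krt19* (0.54, adjusted p = 0.0135, or 0.176 from edgeR). In both, every KO library lay above every WT library, as in 8.36% of all genes. The log2 fold change was above 0 for 5 of the 10 and 4 of the 6. Liver markers summed to 566 to 1830 CPM, and mesenchymal markers to 652, 272 and 1210 CPM in WT and 1120, 128 and 1130 CPM in KO. Markers of blood cells stood out in WT replicate 3 and KO replicate 1, at 16100 and 6470 CPM, followed by KO replicate 3 at 341 CPM. They were at 0.912 to 3.3 CPM in the other 3 libraries. The deletion could not be checked in these counts. No library held a count for *Mir302a*, *Mir302b*, *Mir302c* or *Mir367*, and a count of 0 allows up to 3. For *Mir302d*, the only counts were 2 in KO replicate 3. The host gene *Larp7* was at 63.3 ± 11.3 CPM in WT and 61.9 ± 3.61 in KO (SD, n = 3 each).

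All 30 cilium genes were expressed, with 21 to 3624 counts per library, and all entered the comparison of 16353 genes. Levels were compared between genes as CPM per kilobase of the longest coding transcript, averaged over the WT libraries. The highest levels per kilobase belonged to *Ift43*, an IFT-A subunit, at 41.5 ± 5.58 (SD, n = 3), and *Ift27*, an IFT-B subunit that works with the BBSome, at 40.4. These transcripts are among the shortest of the 30. *Kif7*, a kinesin that sits at the cilium tip and controls the response to Hedgehog, had the lowest level per kilobase, 0.415 ± 0.2 (SD, n = 3).

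Levels per kilobase also differed within the complexes. In IFT-B the levels ran from 40.4 for *Ift27* to 4.71 for *Traf3ip1*, and in IFT-A from 41.5 for *Ift43* to 13.1 for *Ift140*. In the BBSome core they ran from 12.5 for *Bbs2* to 3.65 for *Bbs1*. For the chaperonin-like proteins that help the BBSome to assemble, the levels were 5.5 for *Bbs12* and 4.65 for *Bbs10*. The kinesin-2 subunits ran from 23.2 for *Kif3a* to 4.54 for its partner *Kif3b*. *Dync2h1*, the heavy chain of dynein-2, was at 3.43 and *Arl13b*, a small GTPase of the ciliary membrane, at 2.92.

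Neighbours in the order of WT levels were often not told apart. Of the 29 neighbouring pairs, 22 overlapped in their libraries and 7 did not. The gaps lay below *Ift27*, *Ift52*, *Ift74*, *Ift81*, *Bbs5*, *Bbs12* and *Arl13b*. The order in KO was close to that in WT, with a Spearman correlation of 0.992 across the 30 genes, a description only because both use the same transcript lengths. With the median length of a gene's coding transcripts in place of the longest, *Kif7* was still lowest but *Ift172* became highest, at 82.8. The order within the BBSome core depended on this choice too, with *Bbs4* then highest at 17.8, *Bbs5* lowest at 8.31 and *Bbs1* at 11.1. In IFT-A and kinesin-2 and for *Bbs10* and *Bbs12*, the highest and lowest genes were those named above.

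**Figure D1:**
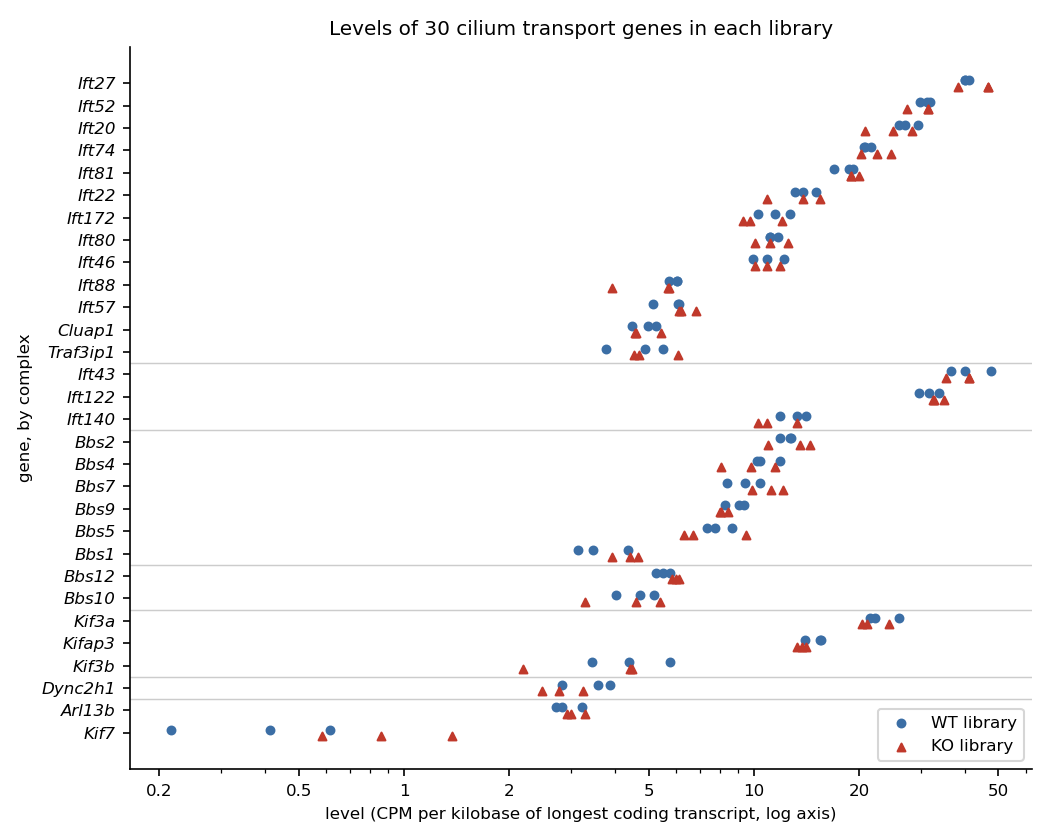
Levels of the 30 cilium transport genes in CPM per kilobase of longest coding transcript (log axis), grouped by complex, with a circle for each WT library and a triangle for each KO library. The genes spread from *Kif7*, at 0.415 on average in WT, to *Ift43* at 41.5, and circles and triangles overlap for all genes but *Bbs12* and *Ift88*.

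Loss of *mir-302* was accompanied by no change that passed the test in any of the 30 genes. These are bulk libraries, in which fewer cells of a type and less RNA per cell cannot be told apart. In the quasi-likelihood test of edgeR, with p-values adjusted by Benjamini-Hochberg over all 16353 genes, 0 of the 30 were called at an adjusted p under 0.05, and the lowest adjusted p was 0.435. No gene at all was called by this test (0.0%). DESeq2's Wald test called 699 of the 14353 genes to which it gave an adjusted p (4.87%), and 0 of the 30, with a lowest adjusted p of 0.228. At an unadjusted p under 0.05 by edgeR, 1 cilium gene stood out, *Kif7* (3.33% of the 30), compared with 10.4% of all genes, 6.42% higher and 3.97% lower in KO. The log2 fold change was above 0 for 12 of the 30 (40.0%) and below 0 for 18, where 45.6% of all genes were above 0. Its median was -0.028 for the cilium genes and -0.025 for all genes. Apart from *Kif7*, the values ran from -0.30 to 0.25.

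The size of these differences can be set beside that of all genes, with no test of the contrast. The median size of the log2 fold change, whatever its sign, was 0.114 for the 30 and 0.171 for all genes, or 0.15 for the 10604 genes in the same range of expression (3.09 to 134 CPM). Within a genotype, the median SD of log2 CPM was 0.151 for the 30, 0.233 for all genes and 0.199 for genes in that range. The 95% interval of the fold change lay within 1.5-fold in either direction for 24 of the 30, compared with 42.4% of all genes. It lay within 2-fold for 28 (93.3%), compared with 65.2%. The other 2 were *Kif7* and *Kif3b*. For most of these genes, changes beyond 2-fold thus lay outside the interval.

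The libraries of KO and WT did not overlap for 2 of the 30 genes (6.67%), compared with 16.4% of all genes. *Bbs12* was above in KO, as were 8.36% of all genes, at 12.8, 13.4 and 14 CPM in WT and 14.2, 14.8 and 14.5 CPM in KO. *Ift88*, the IFT-B subunit whose loss removes cilia, was below in KO, as were 7.99% of all genes, at 18.6, 18.5 and 17.7 CPM in WT and 17.6, 12.1 and 17.6 CPM in KO. In both genes the gap between the genotypes was small beside the spread: the nearest WT and KO libraries of *Ift88* were 17.7 and 17.6 CPM. The log2 fold changes were 0.12 (SE 0.14, adjusted p = 0.869 from edgeR) for *Bbs12* and -0.21 (SE 0.18, adjusted p = 0.802 from edgeR) for *Ift88*. The value of *Ift88* rested on KO replicate 2, without which it was -0.037, while that of *Bbs12* ran from 0.082 to 0.18 with 1 library left out.

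**Figure D2:**
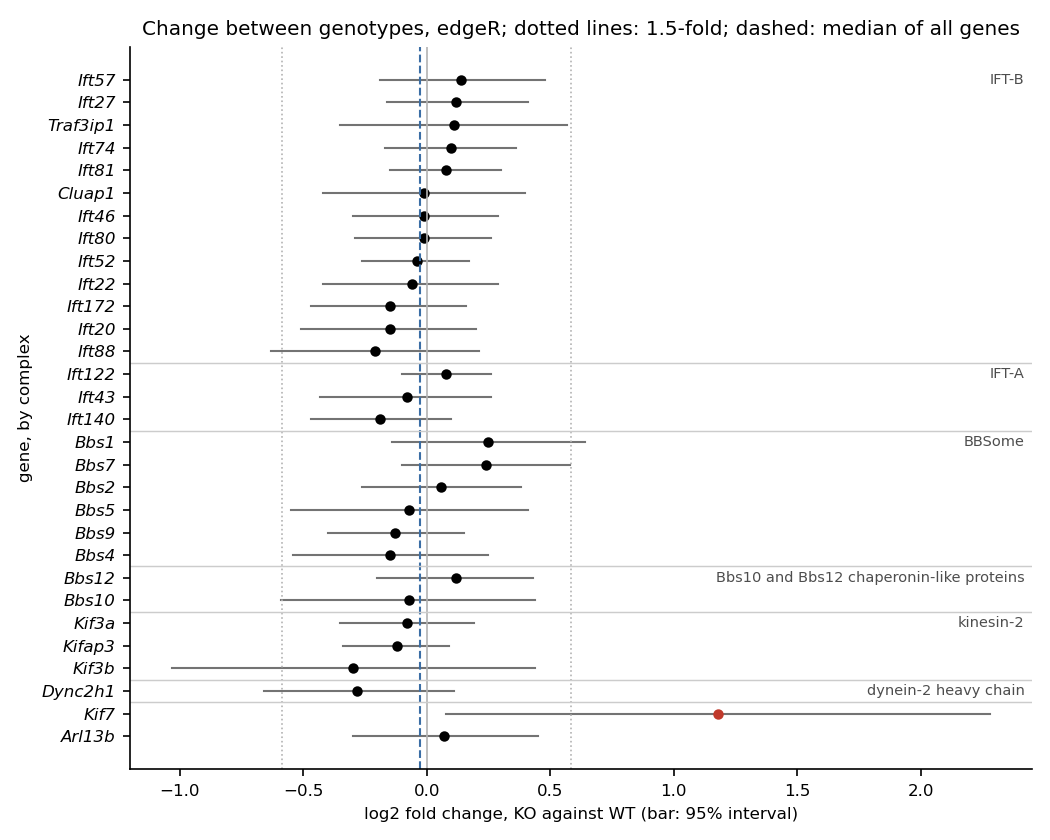
Log2 fold change of each cilium transport gene in KO against WT from edgeR, by complex, with bars for the 95% interval, dotted lines at 1.5-fold and a dashed line at the median of all genes, -0.025. The points lie between -0.30 and 0.25 except *Kif7*, in red, at 1.18, the only interval that does not reach 0.

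IFT-B carries cargo toward the tip and was represented by 13 genes. The log2 fold change was above 0 for 5 and below 0 for 8, with a median of -0.01 and a range of -0.21 to 0.14. The extremes were *Ift88* and *Ift57*, which was at 13.4, 15.9 and 15.7 CPM in WT and 15.9, 16.1 and 17.8 CPM in KO. Tubulin is thought to be carried by *Ift74* and *Ift81* together. Their log2 fold changes were 0.10 (SE 0.11) and 0.08 (SE 0.10). *Ift52*, which holds the core of the complex together, was at 71.6, 70.4 and 67.2 CPM in WT and 61.7, 70.9 and 70.6 CPM in KO. *Cluap1*, with a log2 fold change of -0.01 (SE 0.17), shares 22.4% of its exon bases with *Gm20695* on the same strand, so its counts are uncertain.

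IFT-A brings cargo back and lets membrane proteins enter the cilium. *Ift140*, one of its core subunits, was at 82.4, 92.6 and 98.0 CPM in WT and at 75.9, 71.3 and 92.3 CPM in KO. The genotypes overlapped because KO replicate 3 lay among the WT libraries. Its log2 fold change was -0.19 (SE 0.12, adjusted p = 0.688 from edgeR). With 1 library left out it ran from -0.098 (without WT replicate 3) to -0.27 (without KO replicate 3), where the unadjusted p was 0.0454 and the adjusted p 0.432. *Ift122*, at 131.0 ± 8.54 CPM in WT and 138.0 ± 5.26 in KO (SD, n = 3 each), and *Ift43* had log2 fold changes of 0.08 and -0.08.

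*Dync2h1* and the 3 kinesin-2 genes had log2 fold changes below 0, and none passed the test. *Dync2h1* was at 40.2, 55.3 and 51.1 CPM in WT and 39.5, 35.4 and 46.2 CPM in KO. KO replicates 1 and 2 lay below every WT library and KO replicate 3 among them. The log2 fold change was -0.28 (SE 0.16, adjusted p = 0.65 from edgeR), and with 1 library left out it ran from -0.16 (without WT replicate 2) to -0.40 (without WT replicate 1). With 14264 bases, *Dync2h1* has the longest transcript of the 30. The 814 tested genes with transcripts of at least 8 kb had a median log2 fold change of -0.16, compared with -0.02 for the 3385 genes under 2 kb, and the part of transcript length in the value of *Dync2h1* was not tested.

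Kinesin-2 pairs the motor subunits KIF3A and KIF3B with the adaptor KAP3, encoded by *Kifap3*. *Kifap3* was at 56.0, 61.6 and 62.1 CPM in WT and 56.7, 54.9 and 53.4 CPM in KO. A single WT library, replicate 1, overlapped with KO, and the log2 fold change was -0.12 (SE 0.09, adjusted p = 0.749 from edgeR), or -0.064 to -0.17 with 1 library left out. *Kif3a* had a log2 fold change of -0.08 (SE 0.11). *Kif3b*, described after its values were seen, was at 19.5, 32.5 and 24.8 CPM in WT and 12.3, 25 and 25.3 CPM in KO, with KO replicate 1 below every other library. Its log2 fold change was -0.30 (SE 0.31). With 1 library left out it ran from -0.012 (without KO replicate 1) to -0.46 (without WT replicate 1), and it was -0.52 with the library code as a covariate. The subunits of the pair did not move together between libraries. The ratio of *Kif3a* to *Kif3b* in CPM was 4.22, 2.16 and 2.73 in WT and 6.23, 2.66 and 2.55 in KO, highest in replicate 1 of each genotype.

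No BBSome gene passed the test. Of the 6 core subunits, 3 had a log2 fold change above 0 and 3 below, with a median of -0.01. *Bbs7* and *Bbs1*, both subunits of the core, had the smallest p-values among them. *Bbs7* was at 22.5, 27.9 and 25.2 CPM in WT and 32.6, 30.1 and 26.6 CPM in KO. KO replicates 1 and 2 lay above WT and KO replicate 3 among them, with a log2 fold change of 0.24 (SE 0.14, adjusted p = 0.657 from edgeR), or 0.16 to 0.35 with 1 library left out. *Bbs1* was at 17.6, 24.5 and 19.4 CPM in WT and 24.7, 22 and 26.2 CPM in KO, overlapping through the high WT replicate 2. The log2 fold change was 0.25 (SE 0.17, adjusted p = 0.708 from edgeR), and it ran from 0.15 (without WT replicate 1) to 0.42 (without WT replicate 2). *Bbs2*, *Bbs4*, *Bbs5* and *Bbs9* ranged from -0.15 to 0.06 on the log2 scale, and *Bbs10* was at -0.07.

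Genes that act in ciliary signalling were *Arl13b* and *Kif7*. *Arl13b* was at 9.99, 9.55 and 11.4 CPM in WT and 11.6, 10.6 and 10.3 CPM in KO, with mixed libraries and a log2 fold change of 0.07 (SE 0.16, adjusted p = 0.939 from edgeR), or 0.033 to 0.19 with 1 library left out. *Kif7* was at 0.990, 1.90 and 2.82 CPM in WT and 6.26, 3.93 and 2.67 CPM in KO, from 21, 34 and 58 counts in WT and 168, 69 and 49 in KO. KO replicates 1 and 2 lay above WT, while KO replicate 3 lay below WT replicate 3. Its log2 fold change of 1.18 (SE 0.47, 95% interval 0.08 to 2.28) was a 2.26-fold difference, with an unadjusted p of 0.0393 and an adjusted p of 0.435 from edgeR. Without KO replicate 1 the log2 fold change was 0.81 and the unadjusted p was 0.151, and without WT replicate 1 they were 0.86 and 0.103. Without WT replicate 2 and without KO replicate 2 the unadjusted p was 0.0846 and 0.0544. The log2 fold change rose to 1.6 without WT replicate 3 and to 1.5 without KO replicate 3. The unadjusted p from edgeR was then 0.0192 and 0.0226, and the adjusted p 0.486 and 0.319. The WT and KO libraries highest in *Kif7*, WT replicate 3 and KO replicate 1, were also those highest in blood markers, at 16100 and 6470 CPM. KO replicate 2, with *Kif7* at 3.93 CPM, had the lowest sum of blood markers, 0.912 CPM. KO replicate 3, with *Kif7* at 2.67 CPM, had 341 CPM of them. The part of blood cells in the values of *Kif7* was not tested.

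**Figure D3:**
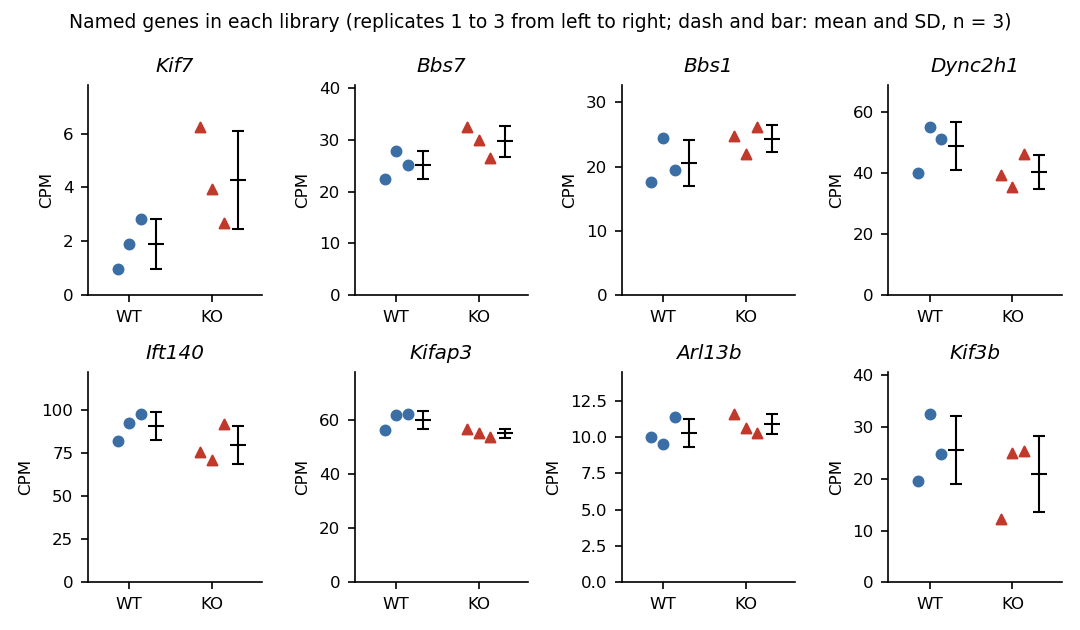
CPM of 8 cilium transport genes in each library, with circles for WT, triangles for KO, and a dash and bar for the mean and SD over 3 libraries, on axes that start at 0. The genotypes overlap in every panel. *Kif7* is at 0.990 to 2.82 CPM in WT and 2.67 to 6.26 in KO.

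*Kif7* also differed from the other cilium genes in base composition. Its most GC-rich stretch of 200 bases had 79.5% GC, the highest of the 30. A stretch of at least 75% was found in *Kif7* and *Ift57* (76.0%), 6.67% of the cilium genes, compared with 22.9% of the 13845 tested genes with a coding transcript. Genes with such a stretch had a median log2 fold change of 0.14 and the others -0.04. The median was 0.066 from 75% to 80% GC, 0.50 from 80% to 85% and 0.044 from 85%. Across all genes the comparison between genotypes thus differed with base composition, without a steady rise. Among the 793 genes whose stretch had 78.5% to 80.5% GC, as *Kif7* does, the median log2 fold change was 0.30, and 34.9% had an unadjusted p under 0.05. Of these 793 genes, 11.3% had a log2 fold change of at least that of *Kif7*, compared with 2.49% of all genes tested. The part of base composition in the value of *Kif7* was not tested. Among its exon bases, 877 (19.1%) overlap an antisense gene, *9330171B17Rik*, which had 0 counts in every library. How strand was handled in counting is not stated.

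**Figure D4:**
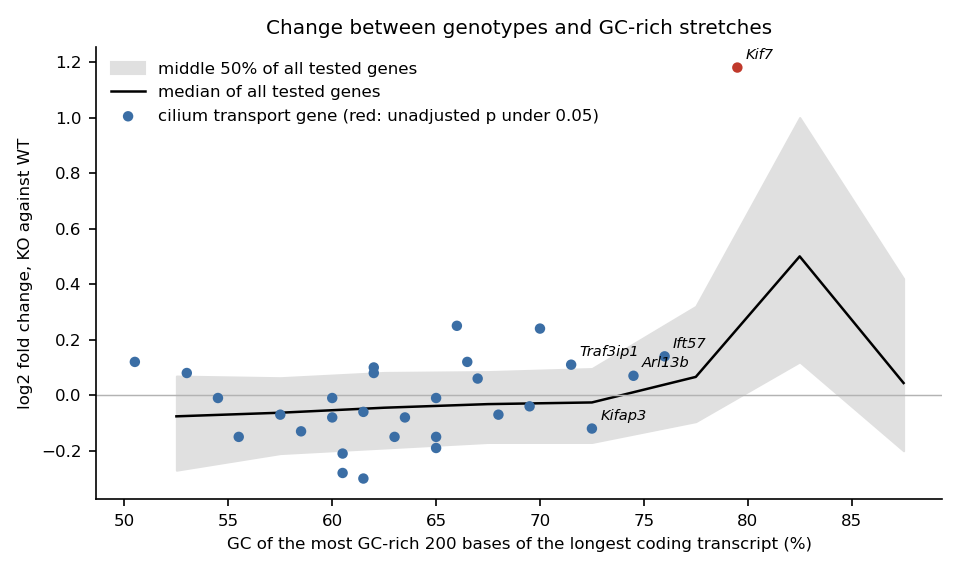
Log2 fold change in KO against WT plotted against the GC content of the most GC-rich 200 bases of the longest coding transcript, with the 30 cilium transport genes as points and the median and middle range of all tested genes as a line and a grey band. The line lies near 0 up to 75% GC, reaches 0.50 in the bin from 80% to 85% and falls to 0.044 in the bin from 85%. *Kif7*, in red, lies at 79.5% GC, and most of the other cilium genes lie under 75%.

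Cilium genes with a seed site for miR-302 were also compared with those without one. The 6 cilium genes with a site had a median log2 fold change of -0.094 and the 24 without one -0.012. Among all genes with a 3′UTR, the medians were -0.028 with a site and -0.013 without. *Bbs4*, a BBSome subunit with 1 site, was at 30, 26.3 and 25.6 CPM in WT and 29.0, 20.2 and 24.7 CPM in KO. *Ift88*, with 2 sites in a 3′UTR of 478 bases, had a log2 fold change of -0.21, and *Bbs1*, also with 2 sites, had a log2 fold change of 0.25.

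The wider cilium, together with 15 genes of cytoplasmic dynein-1 and kinesin-1, was examined in 9 further lists with 149 tested genes. Of the 149, 0 were called by edgeR and 6 by DESeq2, 5 of these higher in KO, where DESeq2 called 4.87% of all genes. An unadjusted p under 0.05 was reached by 10 of the 149 (6.71%), 5 in each direction, compared with 10.4% of all genes. In the 14 IFT and BBSome subunits named otherwise, such as *Ttc8* (*Bbs8*) and *Wdr35* (an IFT-A subunit), 0 reached it and the median log2 fold change was -0.11. Likewise 0 of the 21 transition zone genes, which gate the base of the cilium, reached it, with a median of -0.03. Among the 13 genes of dynein-2 and other ciliary motors the median was -0.18, and 10 were below 0. An unadjusted p under 0.05 by edgeR was reached by 2 (15.4%, compared with 10.4% of all genes), both lower in KO. The libraries of KO and WT did not overlap for 5 (38.5%), compared with 16.4% of all genes. *Dynlt1b*, a light chain that dynein-2 shares with cytoplasmic dynein-1, was at 293.0, 278.0 and 255.0 CPM in WT and 174.0, 254.0 and 196.0 CPM in KO (log2 fold change -0.40, SE 0.14, adjusted p = 0.36 from edgeR). *Kif2a*, a kinesin that takes microtubules apart, had a log2 fold change of -0.56 (SE 0.21, adjusted p = 0.408 from edgeR).

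Among 26 basal body and assembly genes, with a median log2 fold change of -0.09, *Sclt1*, a component of the distal appendages, was at 7.45, 11.3 and 6.12 CPM in WT and 19.5, 18.7 and 16.2 CPM in KO. The genotypes did not overlap, with a log2 fold change of 1.13 (SE 0.25) and an adjusted p of 0.147 from edgeR and 7.48e-04 from DESeq2. *Cep97*, which caps the mother centriole before a cilium grows, had a log2 fold change of -0.42 (SE 0.13, adjusted p = 0.258 from edgeR). Among 19 genes of membrane cargo, with a median of -0.01, *Pkd2*, a ciliary cation channel mutated in polycystic kidney disease, was at 48.4, 62.3 and 44.0 CPM in WT and 92.8, 87.2 and 95.4 CPM in KO. Every KO library lay above every WT library, with a log2 fold change of 0.83 (SE 0.14) and an adjusted p of 0.132 from edgeR and 1.49e-05 from DESeq2.

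In the Hedgehog list of 13 tested genes the median log2 fold change was 0.31. *Ihh*, a Hedgehog ligand, was at 29.1, 38.4 and 41.3 CPM in WT and 95.3, 102.0 and 92.7 CPM in KO. Its log2 fold change was 1.42 (SE 0.14), with an adjusted p of 0.0904 from edgeR and 6.58e-15 from DESeq2. *Shh* had a log2 fold change of 1.95 (SE 0.39) at 0.534 to 3.65 CPM, and *Gas1*, a co-receptor, one of 2.69 (SE 0.65). The adjusted p was 0.134 from edgeR and 0.00548 from DESeq2 for *Shh*, and 0.166 and 2.18e-04 for *Gas1*. Of the 13, DESeq2 called 3, compared with 4.87% of all genes to which it gave an adjusted p, and edgeR 0. *Gas1* was at 1.37, 1.4 and 1.65 CPM in WT and 16.3, 2.28 and 9.85 CPM in KO. In the same order of libraries, mesenchymal markers summed to 652, 272 and 1210 CPM in WT and 1120, 128 and 1130 CPM in KO. The part of mesenchymal cells in the values of *Gas1* was not tested. Of genes that answer to Hedgehog or pass it on, *Ptch1*, the receptor and a target, had a log2 fold change of -0.19 (SE 0.17). That of *Smo* was 0.31 (SE 0.14) and that of *Gli1*, a target at 0.285 to 1.53 CPM, was 0.70 (SE 0.65). Their adjusted p from edgeR was 0.816, 0.497 and 0.823.

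The 6 genes with an unadjusted p under 0.05 that were higher in KO across these lists and the 30 cilium genes were *Sclt1*, *Pkd2*, *Shh*, *Ihh*, *Gas1* and *Kif7*. All 6 held a GC-rich stretch of at least 75%, at 77.5% to 81.5%, as did 22.9% of all tested genes with a coding transcript. These 6 were picked by p-value, and across all tested genes such p-values were commoner with such a stretch. In edgeR, an unadjusted p under 0.05 in either direction was reached by 17.1% of genes from 75% to 80% GC. The share was 44.4% from 80% to 85%, 21.5% from 85%, and 6.14% to 7.89% in the bins under 75%. The 5 genes of these lists that were lower in KO, *Dynlt1b*, *Kif2a*, *Cep97*, *Dync1h1* and *Dctn4*, held none above 73.5%. The part of base composition in these values was not tested. *Dync1h1* is the heavy chain of cytoplasmic dynein-1 and *Dctn4* a subunit of its activator dynactin. *Dync1h1* was at 71.0, 76.9 and 73.9 CPM in WT and 52.7, 40.7 and 44.0 CPM in KO, without overlap. Its log2 fold change was -0.69 (SE 0.12), with an adjusted p of 0.132 from edgeR and 3.46e-04 from DESeq2. That of *Dctn4* was -0.19 (SE 0.08, adjusted p = 0.479 from edgeR). The list of 15 dynein-1 and kinesin-1 genes had a median of -0.05.

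**Figure D5:**
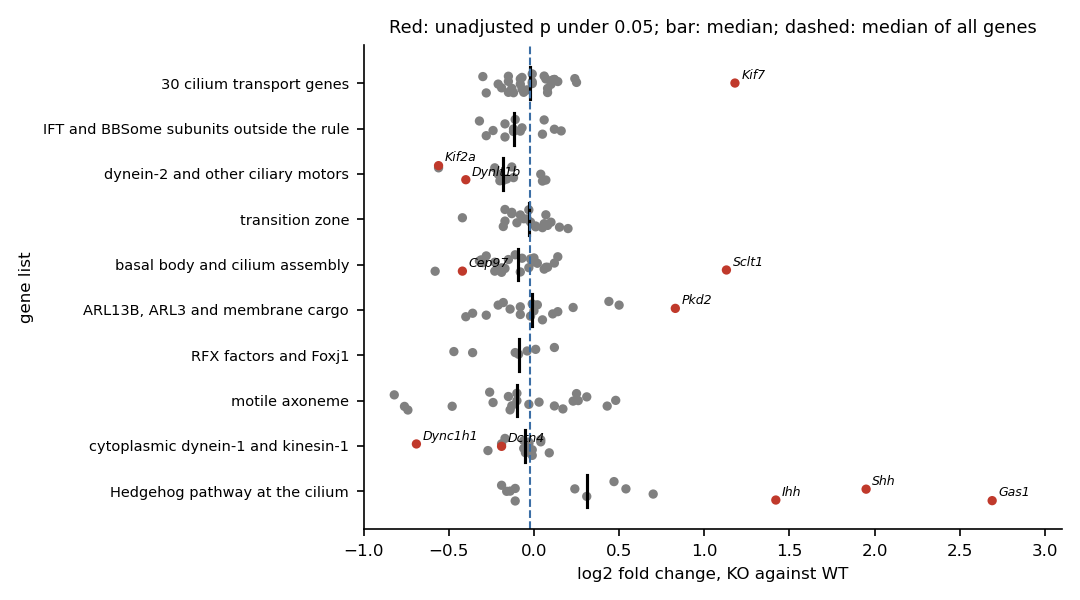
Log2 fold change in KO against WT for each tested gene of the 30 cilium transport genes and of 9 further lists, with a bar at each list's median, a dashed line at the median of all genes (-0.025), and genes with an unadjusted p under 0.05 in red. Most points lie near 0. The Hedgehog list has its median at 0.31, with *Ihh*, *Shh* and *Gas1* furthest to the right.

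Regulators of cilium genes differed widely in level. *Foxj1*, the main switch for motile cilia, was at 0.186 to 1.14 CPM and did not enter the comparison. *Mcidas* and *Gmnc*, which start the program of multiciliated cells, were at 0 counts throughout, which allows up to 3 per library. *Rfx6*, a factor of pancreatic endocrine and gut cells, had overlapping libraries at up to 176 CPM and a log2 fold change of 0.01 (SE 0.20). *Rfx3*, a regulator of cilium genes, was at 27.3, 32.9 and 28.1 CPM in WT and 19.2, 26.7 and 22.7 CPM in KO. The 3 KO libraries lay below the 3 WT libraries, with a log2 fold change of -0.36 (SE 0.16, adjusted p = 0.51 from edgeR). The 21 tested genes of the motile axoneme had a median of -0.10, and 0 of them reached an unadjusted p under 0.05.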

How the data were processed

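Sorted cells were lysed, their polyadenylated RNA was copied with the SMART-seq v4 kit, and Nextera XT libraries were sequenced as paired ends. The authors aligned reads to GRCm39 with STAR, counted them per gene with GenomicAlignments and deposited raw counts. The annotation, the handling of strand and the tool versions are not given in the sources used here. Depth was 17352498 to 26634523 counts per library, which leaves the lowest genes the least precise.

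Symbols were matched by Ensembl identifier (94% of identifiers). The deposited counts were filtered with filterByExpr, scaled with TMM factors and fitted with glmQLFit and glmQLFTest of edgeR 4.0.16 (R 4.3.3), with genotype alone in the model and Benjamini-Hochberg adjustment over all 16353 genes. DESeq2 1.42.0, the tool of the paper, was an alternative. CPM were scaled with TMM factors. SE is the log2 fold change divided by the square root of its F statistic, and intervals use the moderated degrees of freedom. The fit was tested on simulated data. No pair of libraries of a genotype agreed within counting noise, which does not show that they came from separate embryos. Each library was counted as 1 replicate.

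The members, the gene lists and the tests were chosen with earlier results of these data known. Genes were described in full if their unadjusted p was under 0.05 in edgeR or their adjusted p under 0.05 in DESeq2. As fewer than 6 met this, the 3 smallest p in each direction, *Kif7* and *Arl13b* were used, and the highest and lowest gene of each complex. Up to 3 genes with an unadjusted p under 0.05 were named per further list, and *Ptch1*, *Smo* and *Gli1* could be given besides. *Ift88*, *Bbs12*, *Kif3b*, *Ift57*, *Ift52*, *Ift74*, *Ift81*, *Ift122*, *Kif3a*, *Cluap1*, *Bbs4*, *Bbs5*, *Bbs9*, *Ttc8*, *Wdr35*, *Rfx3*, *Rfx6*, *Foxj1*, *Mcidas*, *Gmnc*, *Kif17*, *Tub*, *Adcy3*, *Gata4* and *Krt19* are named or described beyond this rule, after their values were seen. Lengths, GC content and 3′UTRs came from GENCODE M21 (GRCm38) and promoters and miRNAs from RefSeq (GRCm38.p6), while the counts use GRCm39.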

Additional observations from a re-analysis of the deposited data

How the results depend on the processing

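Across 12 alternatives, 0 of the 30 cilium genes were called. Calls over all genes rose from 0 to 264 (241 higher in KO) without a filter on low counts and to 699 (606 higher) with DESeq2, and ran from 0 to 217 when 1 library was left out, the most without WT replicate 2. Leaving out 1 library moved the median log2 fold change of the cilium genes between -0.0075 and 0.033, and the number with an unadjusted p under 0.05 between 0 and 2. That number was 0 with the first digit of the library code as a covariate. What the code marks is not stated. The whole number in it is the same for 1 pair, KO replicate 1 and WT replicate 2, which the covariate does not model.

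Same-numbered libraries did not all deviate together (r = -0.211, 0.251 and 0.0779 for replicates 1, 2 and 3). With 3 libraries per genotype this cannot exclude a pairing. WT replicate 3 correlated best with KO replicate 1 (r = 0.336). With a replicate block, 0 genes were called, the median log2 fold change of the cilium genes was -0.03, and 0 cilium genes had an unadjusted p under 0.05.

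Of 360 values of single cilium genes, 34 changed sign, in 11 genes, none called. With RLE factors these were *Cluap1* (0.0037), *Ift46* (0.01) and *Ift80* (0.0057). With DESeq2 they were *Cluap1* (0.0056), *Ift46* (0.014) and *Ift80* (0.0087). *Ift46* was at 0.0026 without a filter and 0.061 with the library code. Leaving out 1 library gave log2 fold changes of -0.084 to 0.066 for *Cluap1*, -0.16 to 0.098 for *Ift22*, -0.058 to 0.073 for *Ift46*, -0.061 to 0.034 for *Ift52*, -0.06 to 0.076 for *Ift80*, -0.011 to 0.26 for *Traf3ip1*, -0.21 to 0.11 for *Bbs10*, -0.012 to 0.2 for *Bbs2*, -0.27 to 0.056 for *Bbs5*, -0.14 to 0.028 for *Ift43* and -0.15 to 0.0076 for *Kif3a*.

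With the median transcript length, the highest level per kilobase was 197 times the lowest. The cause was not tested. Low counts limit the precision for *Kif7*.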
